A study of Mus musculus with 2 samples.

Results

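Kupffer cells are the resident macrophages of the liver, and 10 genes that mark them or macrophages in general were examined here in RNA-seq of regenerating mouse liver. The 10 genes were taken by symbol from the deposited table of 34745 genes, and each matched a single Ensembl identifier. They comprised 6 genes of resident Kupffer cells (*Clec4f*, *Timd4*, *Marco*, *Cd5l*, *Folr2* and *Cd163*) and 4 genes carried by macrophages in general (*Adgre1*, *Csf1r*, *Cd68* and *Lyz2*). The study asked how miR-182-5p acts in liver regeneration after 2/3 partial hepatectomy (PH), an operation that removes about 70% of the liver. One library came from the liver of male heterozygous miR-182-5p knockout mice (KO; labelled miRNA-182 KO), which carry the deletion on a single allele, and the other from wild-type mice (WT). All mice were 8 to 10 weeks old and underwent PH, and the RNA is that of day 3. The day and the heterozygous state come from the paper rather than the sample labels. The deletion is in every cell of the body, and the number of mice behind each library is not stated in the sources used here.

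Kupffer cells line the liver sinusoids, where they take up bacteria, dying cells and aged red cells from the portal blood. Their survival depends on signaling through the receptor encoded by *Csf1r*, and their identity is maintained by transcription factors together with signals from stellate, endothelial and parenchymal neighbors. After PH they are known as a source of cytokines that prepare hepatocytes for division, and monocytes from the blood can enter the liver and take on macrophage features.

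The libraries held 13247497 counts (KO) and 13163348 counts (WT). Mitochondrial messages (13 protein-coding genes) made up 51.7% of the KO library and 31.0% of the WT library, so libraries were scaled by the TMM method, which limits the weight of such genes (factors 0.812 and 1.23). Fold changes are KO over WT of TMM-scaled counts on the log2 scale, with exact 95% binomial intervals. With 1 library per genotype there is no replicate check, and all intervals cover counting error only. Genes with a log2 value of 1 or more, or of −1 or less, were called 2-fold higher or lower. Of 13561 genes with at least 10 counts, 1348 (9.94%) were 2-fold lower and 1283 (9.46%) 2-fold higher in KO. Scaled by total counts, these numbers were 3605 (26.6%) and 624 (4.6%), and the median over all genes moved from 0.00 to −0.60. *Alb* and *Apoa1*, secreted products of hepatocytes, had 339876 and 115022 counts in KO and 536544 and 148641 in WT. The level of the deleted microRNA was not analysed here and gives no check on the labels.

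The microRNA that was deleted is shown first, since its seed (bases 2 to 8, in capitals) decides which transcripts it can pair with. Its mature form is annotated by RefSeq on the minus strand of GRCm38.p6 at chr6:30165962-30165986.
mmu-miR-182-5p: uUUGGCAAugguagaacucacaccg
The 8-base match to this seed, TTGCCAAA, and both 7-base matches, TTGCCAA and TGCCAAA, were sought in the longest annotated 3′ UTR of each gene. None of the 10 genes held any of them in UTRs of 121 to 1669 bases, 6940 bases in all. Of 12541 tested genes with a UTR, not matched for UTR length, 21.7% held at least 1. The absence of these letters says nothing about sites elsewhere in the transcripts.

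The promoters of 3 genes are shown because they belong to a resident gene that was 2-fold lower (*Marco*), the most abundant resident gene (*Clec4f*) and a general macrophage gene whose interval held 0 (*Cd68*). Each runs from 250 bases before to 50 bases after the RefSeq start on the minus strand of GRCm38.p6, at chr1:120504975-120505274, chr6:83656067-83656366 and chr11:69666121-69666420. Capitals mark GAGGAA on either strand, letters found in sites of PU.1, the transcription factor of the myeloid lineage encoded by *Spi1*.
Marco: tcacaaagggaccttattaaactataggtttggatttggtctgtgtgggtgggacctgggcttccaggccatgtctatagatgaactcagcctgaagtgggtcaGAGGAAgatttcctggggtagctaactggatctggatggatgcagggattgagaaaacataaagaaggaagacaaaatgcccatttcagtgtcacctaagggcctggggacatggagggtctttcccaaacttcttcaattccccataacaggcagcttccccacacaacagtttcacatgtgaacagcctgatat
Clec4f: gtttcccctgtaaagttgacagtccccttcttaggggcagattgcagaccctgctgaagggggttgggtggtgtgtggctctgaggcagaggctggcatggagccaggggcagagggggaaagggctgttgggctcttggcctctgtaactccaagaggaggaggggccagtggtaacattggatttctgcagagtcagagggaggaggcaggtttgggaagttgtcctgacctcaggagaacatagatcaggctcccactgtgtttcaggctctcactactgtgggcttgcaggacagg
Cd68: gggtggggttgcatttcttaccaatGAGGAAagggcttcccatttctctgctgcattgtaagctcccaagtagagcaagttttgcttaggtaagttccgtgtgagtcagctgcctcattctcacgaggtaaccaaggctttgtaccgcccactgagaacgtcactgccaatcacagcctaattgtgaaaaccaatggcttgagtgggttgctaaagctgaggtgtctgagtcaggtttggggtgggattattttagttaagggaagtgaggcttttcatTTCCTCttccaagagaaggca
The *Marco* window held the letters once, 146 bases before the start, the *Cd68* window on both sides of the start, and the *Clec4f* window not at all. Of 8 member genes with a window read here, 3 held GAGGAA (*Marco*, *Cd5l* and *Cd68*), against 28.3% of 32851 promoter windows. *Spi1* itself had 42 counts in KO and 49 in WT, with an interval that held 0 (log2 fold change 0.37, −0.26 to 0.99).

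The 6 resident Kupffer genes were all below 0 on the log2 scale, and 2 of them, *Folr2* and *Marco*, were 2-fold lower in KO. Their median log2 fold change was −0.44. Among the 4 general macrophage genes, *Adgre1* was 2-fold lower, *Csf1r* and *Cd68* had intervals that held 0, and *Lyz2* lay above 0, with a median of −0.13 for the group, although their summed counts, weighted by *Lyz2*, stood at 0.08 (−0.09 to 0.24). In all, 3 of the 10 genes were 2-fold lower and 0 were 2-fold higher, against 9.94% and 9.46% of all genes tested, and 9 of 10 were below 0, against 50% of all genes tested. An adjusted exact binomial test, which compares these libraries and not the genotypes, was also added to the 2-fold limit. Together they left the same 3 genes as lower and 0 as higher, against 8.32% and 7.97% of all genes. *Clec4f*, *Cd5l* and *Cd163*, as lower, and *Lyz2*, as higher, passed the test but fell short of a 2-fold change. With total counts 4 were 2-fold lower, *Cd163* being the addition, against 26.6% of all genes. In bulk liver, fewer cells of a type and less RNA per cell cannot be told apart.

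**Figure D1:**
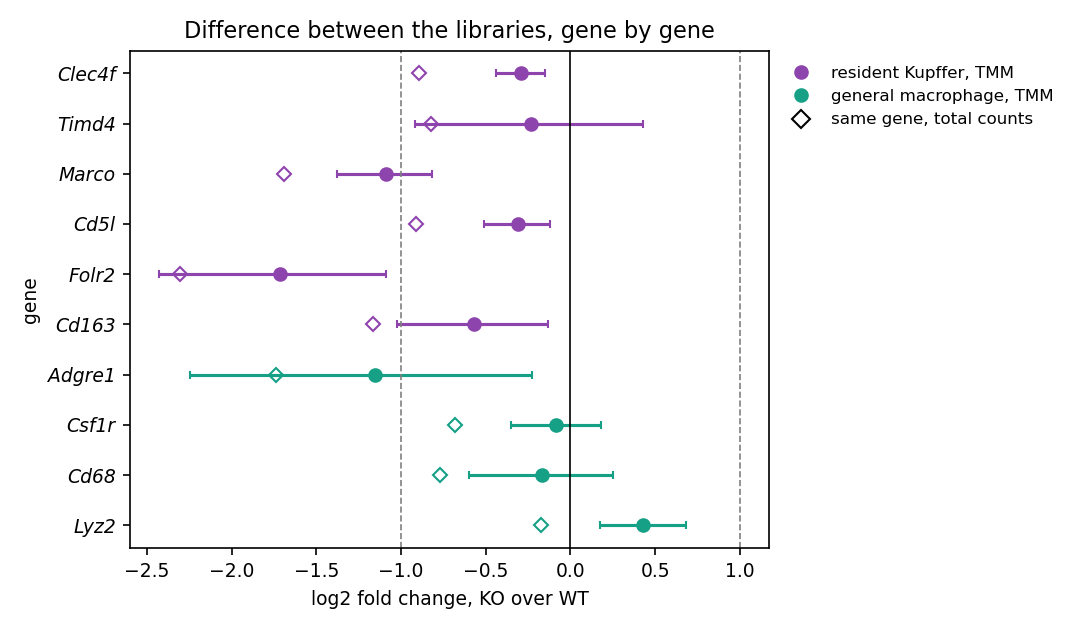
Log2 fold change (KO over WT) of the 10 genes, with 1 gene per line. Filled circles are TMM-scaled values with exact 95% binomial intervals, open diamonds the same genes scaled by total counts, and dashed lines a 2-fold change; with TMM *Folr2* lies farthest to the left at −1.71 and *Lyz2* alone lies right of 0 at 0.43.

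*Folr2*, the beta form of the folate receptor and a surface marker of resident macrophages, differed most. It had 24 counts in KO and 120 in WT, or 2.23 and 7.40 TMM-scaled CPM (counts relative to a common library size), so the KO level was 30.5% of that in WT. The log2 fold change was −1.71 (−2.43 to −1.09), and its interval was the only one of the 10 that lay wholly past a 2-fold decrease. *Folr2* (ENSMUSG00000032725) occupies 101839990 to 101845331 of chromosome 7, minus strand, in the deposited table (GRCm38). It is protein coding, like the other 9 genes. GENCODE M21 places *Gm10602* on the opposite strand there, and 56.5% of the 51-base words of the longest *Folr2* transcript also occur in it. Counts from both strands would not separate the pair, and whether strand was used is not given in the sources used here. By its GENCODE identifier *Gm10602* was not among the listed genes, so its counts cannot be set beside those of *Folr2*.

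*Marco*, a scavenger receptor that binds bacteria and modified lipoproteins, had 139 counts in KO and 447 in WT, or 12.9 and 27.6 TMM-scaled CPM. The log2 fold change of −1.09 (−1.38 to −0.82) put the KO level at 47.0% of WT, and the interval spanned the 2-fold limit. *Marco* (ENSMUSG00000026390) occupies 120474538 to 120505024 of chromosome 1, minus strand, and shared no 51-base word with another gene.

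*Cd163*, the receptor that clears haemoglobin bound to haptoglobin, had 63 counts in KO and 141 in WT (log2 fold change −0.57, −1.02 to −0.13). It lay below 0 without reaching a 2-fold change, which it passed with total counts (−1.17). *Cd163* (ENSMUSG00000008845) occupies 124304656 to 124330527 of chromosome 6, plus strand.

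*Clec4f*, a C-type lectin found in the mouse almost solely on Kupffer cells, had 600 counts in KO and 1108 in WT. Its log2 fold change of −0.29 (−0.44 to −0.15) left the KO level at 81.7% of WT. *Cd5l*, a secreted protein that keeps macrophages alive and binds lipids, had 338 and 633 counts (−0.31, −0.51 to −0.12), a level of 80.5%. *Timd4*, the receptor for phosphatidylserine on dying cells and a marker of long-lived Kupffer cells, had 31 and 55 counts (−0.23, −0.92 to 0.43). With TMM *Clec4f* and *Cd5l* thus lay below WT by more than counting error and short of a 2-fold change, whereas with total counts they stood at −0.89 and −0.91, close to 2-fold, and at the depth of *Timd4* no difference was detectable. *Clec4f* lies on the minus strand of chromosome 6 (83644542 to 83656187), *Cd5l* on the plus strand of chromosome 3 (87357881 to 87371073) and *Timd4* on the plus strand of chromosome 11 (46810800 to 46844332).

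Of the general macrophage genes, *Csf1r*, the receptor for the growth factors CSF1 and IL34, had 194 counts in KO and 310 in WT. Its log2 fold change was −0.08 (−0.35 to 0.18), the value nearest to 0 among the 10 genes. It lies on the plus strand of chromosome 18 (61105572 to 61132149) and shares 17.7% of its words with *Hmgxb3* on the opposite strand, which had 93 and 109 counts. *Cd68*, a glycoprotein of lysosomal membranes on the minus strand of chromosome 11 (69664213 to 69666153), had 76 and 129 counts (−0.17, −0.60 to 0.25). For neither was a difference detectable at this depth with TMM, while with total counts they stood at −0.68 and −0.77, close to the median of all genes.

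*Adgre1*, which encodes the adhesion receptor F4/80 used to stain mouse macrophages, was the general gene past 2-fold. It had 12 counts in KO and 41 in WT, a log2 fold change of −1.15 with a wide interval (−2.24 to −0.22), and with a prior count of 5 in place of 0.5 it fell short of a 2-fold change at −0.96. *Adgre1* (ENSMUSG00000004730) occupies 57358686 to 57483529 of chromosome 17, plus strand. *Lyz2*, the lysozyme of macrophages, monocytes and neutrophils, had 248 and 278 counts and was the only gene above 0 with TMM (0.43, 0.17 to 0.68). With total counts it lay below 0 at −0.17, still the highest of the 10. *Lyz2* lies on the minus strand of chromosome 10 (117277334 to 117282274) and shares 14.8% of its words with *Lyz1*, which had 0 counts in both libraries.

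The level of the genes per length is given by the FPKM that the authors computed, which divide by the total count and so carry the mitochondrial reads. All 10 genes had a lower FPKM in KO, as did 81.7% of the genes tested. *Clec4f* was highest in both libraries, at 16.1 FPKM in KO and 30.0 in WT, and *Adgre1* lowest, at 0.251 and 0.863.

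**Figure D2:**
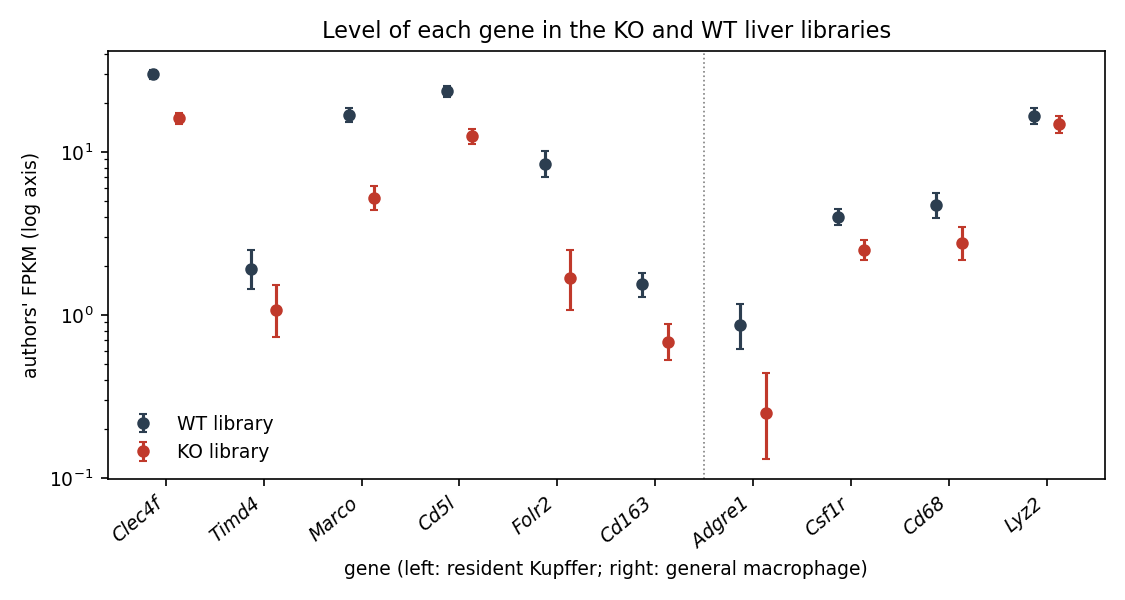
Level of each gene as the authors' FPKM on a log axis, with 1 point per library and exact 95% Poisson intervals of the count behind it. WT points lie above KO points for all 10 genes, with the widest gap for *Folr2* (8.45 against 1.68) and the narrowest for *Lyz2* (16.7 against 14.8).

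In the WT library *Clec4f* was followed by *Cd5l* (23.6 FPKM), *Marco* (16.9), *Lyz2* (16.7), *Folr2* (8.45), *Cd68* (4.74), *Csf1r* (4.02), *Timd4* (1.92), *Cd163* (1.54) and *Adgre1*. Neighbors in this order had overlapping counting intervals for *Marco* and *Lyz2*, for *Cd68* and *Csf1r*, and for *Timd4* and *Cd163*. In the KO library the order was *Clec4f*, *Lyz2* (14.8), *Cd5l* (12.5), *Marco* (5.21), *Cd68* (2.78), *Csf1r* (close behind), *Folr2* (1.68), *Timd4* (1.08), *Cd163* (0.684) and *Adgre1*. There the intervals of *Clec4f* and *Lyz2* overlapped, as did those of *Lyz2* and *Cd5l* and of each neighboring pair from *Cd68* down to *Cd163*. *Lyz2* moved from place 4 to place 2 and *Folr2* from place 5 to place 7, while *Timd4*, *Cd163* and *Adgre1* kept places 8, 9 and 10.

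Resident and general genes can be set against each other inside each library, which needs no scaling. The 6 resident genes had 1195 counts against 530 for the 4 general genes in KO, a ratio of 2.25, and 2504 against 758 in WT, a ratio of 3.30. The odds ratio, KO over WT, was 0.683 (exact 95% interval 0.598 to 0.780). *Lyz2* carried part of this, since without it the ratio was 0.812 (0.689 to 0.959). Without *Marco*, a division chosen after the values were seen, it was 0.734 (0.641 to 0.841). With *Folr2* and *Cd163* counted as general genes it was 0.816 (0.720 to 0.925). The summed resident counts were thus lower relative to the summed general counts under each of these divisions. The medians did not keep that order: the resident minus general difference was −0.31 (−0.44 against −0.13), but with *Folr2* and *Cd163* as general genes the order turned, with −0.30 for the 4 resident genes and −0.37 for the 6 general genes.

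Relative to *Csf1r*, a reference chosen after the values were seen, the resident genes split. *Clec4f* (odds ratio 0.865, 0.702 to 1.07), *Cd5l* (0.853, 0.679 to 1.07), *Timd4* (0.901, 0.540 to 1.48) and *Cd163* (0.714, 0.496 to 1.02) had intervals that held 1. *Marco* (0.497, 0.379 to 0.651) and *Folr2* (0.320, 0.190 to 0.520) lay below 1, as did *Adgre1* (0.468, 0.218 to 0.936). *Cd68* tracked *Csf1r* most closely (0.942, 0.662 to 1.33), and *Lyz2* was higher (1.43, 1.10 to 1.84). As shares of the counts of all 10 genes, *Marco* made up 13.7% in WT and 8.06% in KO, *Lyz2* 8.52% and 14.4%, and *Clec4f* 34.0% and 34.8%.

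**Figure D3:**
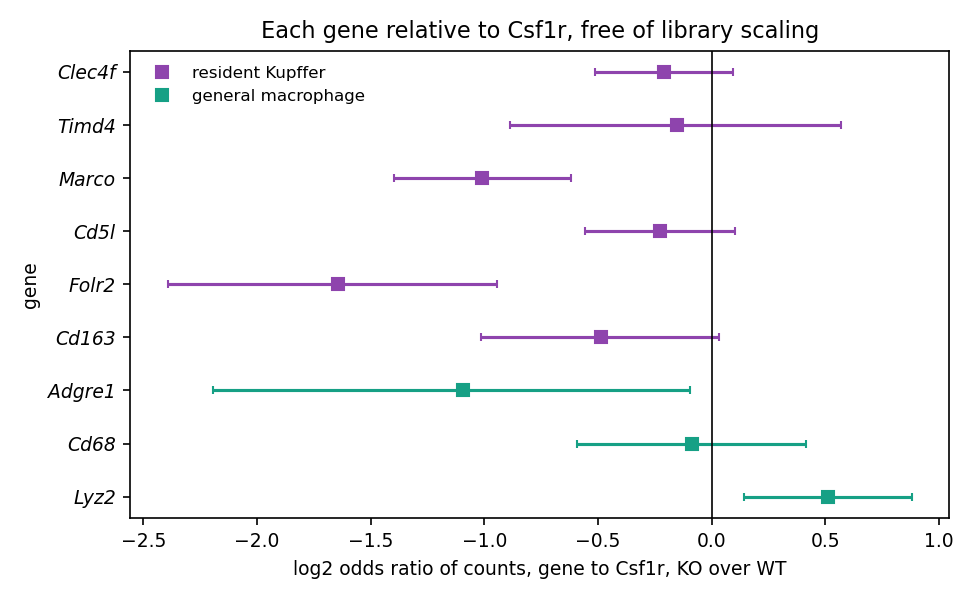
Log2 odds ratio of each gene's counts to those of *Csf1r*, KO over WT, with exact 95% intervals and no scaling of the libraries. *Folr2*, *Marco* and *Adgre1* lie left of 0 with intervals clear of it, *Lyz2* lies right of it, and the other 5 genes have intervals across 0.

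Other genes of Kupffer cells and macrophages were followed as lists. For these and all later lists, the shares over all genes tested were 9.94% 2-fold lower, 9.46% 2-fold higher and 50% below 0. Of 9 further Kupffer genes, 8 had enough counts, 1 was 2-fold lower and 5 were below 0, with a median log2 fold change of −0.45 and summed counts at 0.16, to which *C6* gave most. *Fcna*, a ficolin that recognizes sugars on microbes, had 79 counts in KO and 342 in WT (−1.52, −1.89 to −1.17). *Slc40a1*, the iron exporter ferroportin, had 352 and 728 counts (−0.46, −0.64 to −0.27). *C6*, a complement component that hepatocytes also make, lay above 0 with 1910 and 1842 counts (0.64, 0.55 to 0.74).

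The 10 transcription factors of the macrophage and Kupffer program had 7 members above 0 and a median of 0.53 with TMM, and of −0.06 with total counts, where the median of all genes was −0.60. None was 2-fold higher, and *Id1* was 2-fold lower with 45 and 142 counts (−1.06, −1.58 to −0.57). *Nr1h3*, the oxysterol receptor LXR alpha, had 684 and 702 counts (0.55, 0.40 to 0.71), and *Cebpb*, also a hepatocyte factor, 1498 and 2505 (−0.15, −0.24 to −0.06).

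Of 18 other macrophage genes, 10 lay above 0 and the median was 0.07, with summed counts at −0.10. *Mpeg1*, a pore-forming protein of phagocytes, had 978 and 1337 counts (0.14, 0.02 to 0.26), and *Lgmn*, a lysosomal protease, 268 and 510 (−0.34, −0.55 to −0.12). The only one past 2-fold was *Ms4a7*, with 13 counts in KO and 1 in WT (3.66, 1.56 to 9.70). The 3 chains of the complement starter C1q, named after their values were seen, were each below 0, *C1qa* at −0.96 (156 and 459 counts), *C1qc* at −0.64 (111 and 261) and *C1qb* at −0.48 (136 and 287). *Cybb* (86 and 67 counts, 0.95, 0.47 to 1.44) and *Cd14* (44 and 36, 0.87, 0.21 to 1.56), also named afterwards, had intervals wholly above 0.

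**Figure D4:**
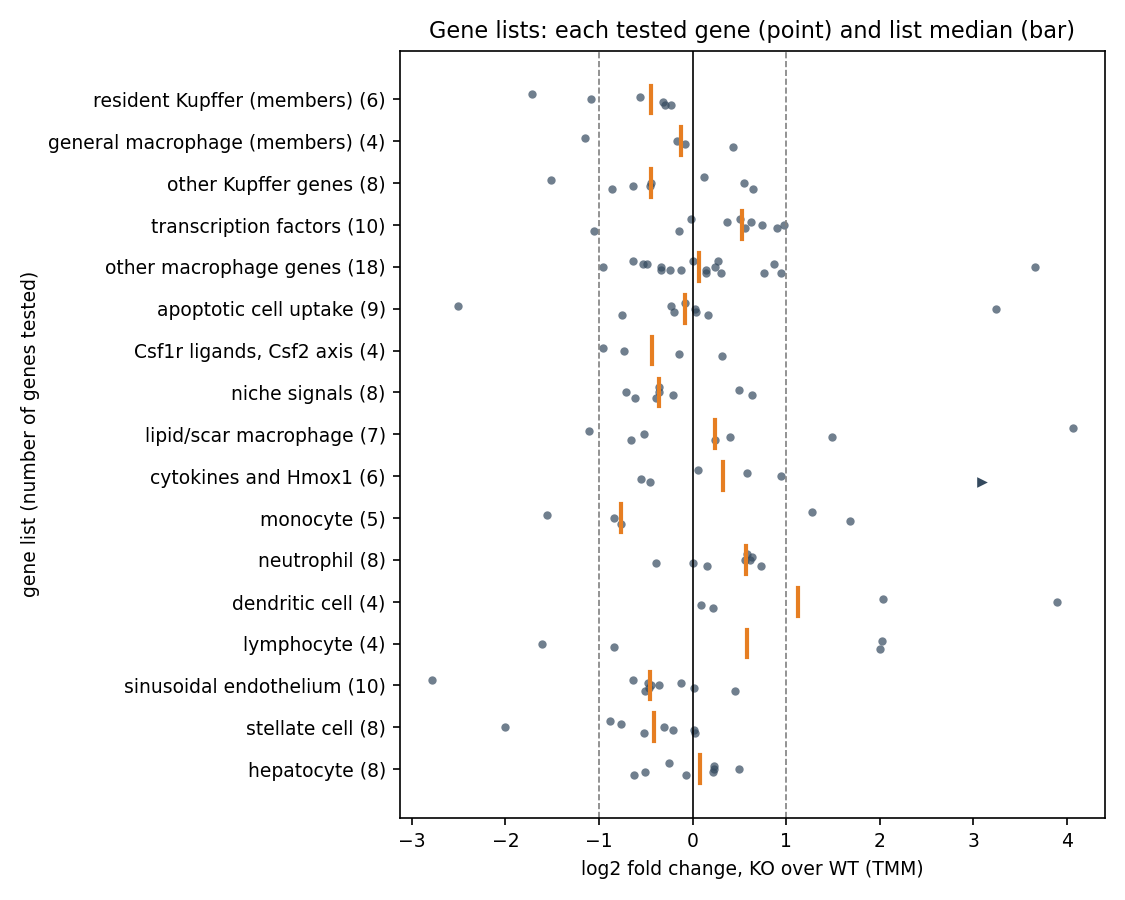
Log2 fold change (KO over WT, TMM) of each tested gene in each list (points) with the list median (bars), number tested in brackets. The resident Kupffer median lies at −0.44 and that of the transcription factors at 0.53. Dashed lines mark a 2-fold change, and the triangle places *Tnf*, with 0 counts in WT, at its value with WT set to 3 counts.

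Genes that serve the uptake of dying cells, *Timd4* among them, had a median of −0.08 over 9 genes, with 1 lower and 1 higher. *Cd36*, a scavenger receptor for oxidized lipids, had 37 and 320 counts (−2.51, −3.05 to −2.03), whereas *Itgav*, an integrin subunit, had 110 and 17 (3.24, 2.54 to 4.12). *Pros1* (0.17), the bridging protein S, and *Scarb1* (−0.20), a lipoprotein receptor also of hepatocytes, stood nearer to 0.

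The list of lineage growth factors also held receptor subunits for GM-CSF. *Csf1*, a ligand of the *Csf1r* product, had 163 and 198 counts (0.31, 0.00 to 0.62). *Csf2ra*, one of those subunits, had 69 and 115 (−0.14, −0.60 to 0.30). None of the 4 tested genes of this list was past 2-fold, and the median was −0.44. The niche signals (Notch ligands and receptors, *Tgfb1*, and *Gdf2*, *Bmp10* and *Acvrl1* of the BMP pathway) likewise held no gene past 2-fold among 8, with a median of −0.36. *Notch1* had 167 and 330 counts (−0.39, −0.67 to −0.12) and *Notch2* 174 and 303 (−0.21, −0.49 to 0.07).

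Genes of neighboring sinusoidal cells had medians close to that of the resident genes. Over all genes tested, 50% lay below 0 and 9.94% were 2-fold lower, and 1 gene called in a list of this size is near the latter share. The sinusoidal endothelial list had a median of −0.46, with 8 of 10 genes below 0, 1 of them 2-fold lower (*Lyve1*, 4 and 45 counts, −2.78, −4.84 to −1.44), and summed counts of 1732 in KO and 2748 in WT (−0.07, −0.16 to 0.01). *Stab1* (0.46) and *Stab2* (0.01), scavenger receptors of that endothelium, did not share the direction. The stellate list had a median of −0.41, with 6 of 8 below 0, 1 of them 2-fold lower (*Hgf*, 5 and 32 counts, 4.01-fold), and summed counts of 1438 and 2683 (−0.31, −0.40 to −0.21). *Dcn*, a matrix proteoglycan, stood at −0.52 and *Ecm1* at 0.02. Hepatocyte genes had a median of 0.08, with none of 8 past 2-fold, 4 below 0 and 4 above 0. *Alb* stood at −0.07, but the list was spread. *Cps1* lay at −0.63 (−0.67 to −0.58) and *Ass1* at −0.51 (−0.55 to −0.47), both below the resident median, and *Fah* at 0.50 (0.45 to 0.55). None of the endothelial, stellate or hepatocyte markers was at 0 in either library, and the part of these cells in the values of the resident genes was not tested.

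Gene length also moved with the fold change across all genes, from a median of −0.10 in the shortest of 5 equal groups (195 to 2436 bases by the authors' FPKM) to 0.12 in the longest. *Timd4*, *Marco*, *Cd5l*, *Folr2*, *Cd68* and *Lyz2* belong to the shortest group, in which *Folr2* and *Lyz2* lie at opposite ends of the 10 genes. The part of length in the members' values was not tested.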

How the data were processed

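Poly(A) RNA of mouse liver was sequenced on Illumina HiSeq instruments, with 1 library per genotype. The authors deposited raw read counts per gene and FPKM, scaled by gene length and total counts. The submitters' processing notes name HISAT2 2.0.4, StringTie and edgeR, and the build hg38, while the deposited identifiers and coordinates are of mouse. For 6 of the 10 members the coordinates equal those of GENCODE M21 (GRCm38).

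Library sizes were scaled by TMM (edgeR 4.0.16, R 4.3.3). Log2 fold changes used a prior count of 0.5 and a minimum of 10 counts per gene over the pair of libraries. Intervals are exact Clopper-Pearson 95% intervals of the KO share, conditional exact intervals for odds ratios (scipy 1.17.1) and exact Poisson intervals for FPKM. PCR reads without molecular identifiers are not independent molecules, so these cover counting error only. No test of the genotypes was made, since single libraries leave no spread to estimate. Alternatives were total counts, with or without mitochondrial genes, DESeq2 1.42.0 size factors, the upper quartile, FPKM with a pseudocount of 0.1, other prior and minimum counts, an exact binomial test with Benjamini-Hochberg adjustment, edgeR's exact test with assumed coefficients of variation of 0.2 and 0.4, and other divisions of the members. The steps were tried on simulated counts with known fold changes. These held counting noise only and no mitochondrial difference between the libraries, so they do not check the scaling for it.

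The members and lists were chosen with earlier results of these data known. Besides the members, the genes named are the 2 with most counts in each list and those past 2-fold with at least 50 counts, except 1 that is not reported here. Other genes past 2-fold, *Spi1*, the C1q chains, *Gm10602*, *Hmgxb3*, *Lyz1*, *Il1b*, *Irf8*, *Vcan*, *F13a1* and *Ly6c2* were named after their values were seen. The same holds for *Cybb*, *Cd14*, *Cps1*, *Ass1*, *Fah* and *Il1a*. Promoters and the microRNA are from RefSeq (GRCm38.p6), and 3′ UTRs and shared 51-base words from GENCODE M21.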

Additional observations from a re-analysis of the deposited data

How the results depend on the processing

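No paired analysis was possible because a single KO library stands against a single WT library, and none could be left out. The 3 members 2-fold lower (*Marco*, *Folr2* and *Adgre1*) were called with every scaling tried, with a minimum of 1 or 50 counts and with the adjusted binomial test. *Cd163* joined them with total counts and with the authors' FPKM, *Adgre1* was lost with a prior count of 5, and an assumed coefficient of variation of 0.2 left 1 (*Folr2*) and of 0.4 left 0. The resident median moved from −0.44 to −1.04 with total counts and −0.99 with FPKM, and the general median from −0.13 to −0.73 and −0.71. The odds ratio of resident to general counts moved from 0.683 to 0.816 with *Folr2* and *Cd163* as general genes and to 0.812 without *Lyz2*.

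Over all genes, the numbers 2-fold higher and lower (1283 and 1348) were 624 and 3605 with total counts, 405 and 2934 with FPKM, 2269 and 2763 with a minimum of 1 count, 656 and 730 with 50 counts (fewer genes tested), and 488 and 444, then 59 and 58, with assumed coefficients of variation of 0.2 and 0.4, which allow for more noise. Of 80 values of single members under other scalings, prior counts and minimum counts, 66 stayed inside their counting interval, 14 moved out of it and 74 lay below 0. *Lyz2*, not past 2-fold, changed sign from 0.43 to −0.17 with total counts and with FPKM. The resident minus general difference of medians turned from −0.31 to 0.07 with *Folr2* and *Cd163* as general genes. With 12 to 63 counts in KO, *Adgre1*, *Folr2*, *Timd4* and *Cd163* are limited by depth.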

Other observations

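Lists of other immune cells differed in direction. Over all genes tested, 9.94% were 2-fold lower and 9.46% 2-fold higher. The neutrophil list had a median log2 fold change of 0.57 with TMM and −0.01 with total counts, with none of 8 tested genes past 2-fold. Its summed counts over all 10 genes were 529 in KO and 673 in WT, or 0.24 with TMM (0.08 to 0.41). The most abundant genes, *S100a8* (142 and 214 counts in KO and WT) and *S100a9* (189 and 256), stood at 0.00 and 0.15. Monocyte genes were sparse, with 97 and 162 counts over 8 genes and a median of −0.76 over the 5 tested, of which 2 were 2-fold higher and 1 lower. The summed counts of all 8 stood at −0.15 (−0.53 to 0.22), and the 3 genes with too few counts each had more in KO (*Vcan* 7 and 0, *F13a1* 6 and 1, *Ly6c2* 2 and 1). *Ccr2*, the chemokine receptor that brings monocytes into tissue, had 20 and 9 counts (1.68, 95% counting interval 0.54 to 3.06), *S100a4* 7 and 4 (1.28, −0.58 to 3.62), *Chil3* 2 and 10 (−1.55, −4.96 to 0.50) and *Plac8* 48 and 123 (−0.76, −1.28 to −0.27). Among lymphocyte and leukocyte genes, *Ptprc*, the leukocyte antigen CD45, had 41 and 15 counts (past 2-fold higher), *Cd79a* of B cells 12 and 4 (2.02, 0.46 to 4.27), and *Trbc2* of T cells 3 and 15 (−1.61, −4.16 to 0.09). Among dendritic cell genes, with a median of 1.13 over 4 tested, *Siglech*, of plasmacytoid cells, had 45 and 4 counts (3.89, 2.63 to 6.02) and *Itgax* 23 and 8 (2.04, 0.90 to 3.49), while *Zbtb46* (37 and 48) and *Clec9a* (29 and 41) had intervals that held 0.

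Genes of lipid-associated and scar-associated macrophages had a median of 0.24 over 7 and summed counts at −0.22. *Gpnmb*, a glycoprotein of phagocytes, had 106 counts in KO and 9 in WT (4.06, 3.17 to 5.32), whereas *Cd9*, a tetraspanin present on many cells, had 173 and 562 (−1.11, −1.36 to −0.86). *Lpl* stood at −0.65, *Spp1* at 0.40 and *Mmp12* at 1.48 (10 and 5 counts, −0.09 to 3.49). Of the cytokine list (median 0.32 over 6 tested), *Tnf* had 17 counts in KO and 0 in WT. With WT set to a floor of 3 counts, KO was 8.54-fold higher, and the log2 counting interval ran from 2.64 upward. *Il1b* had 34 counts in each library, and *Il6* and *Nos2* had 0 in both. *Il18* (−0.55) and *Hmox1* (−0.45), which degrades heme, lay below 0 without a 2-fold change. *Irf8*, a factor of monocytes and dendritic cells, had 98 and 75 counts (0.97, 0.53 to 1.43).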
